A study of Mus musculus with 24 samples.

Results

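The giant cadherins and the large LDL receptor-related proteins are long proteins that enter the secretory pathway and end at the cell surface. The 10 genes described here were chosen by name, with earlier results of these data known, as the table entries with the symbols Fat1, Fat3, Fat4, Dchs1, Celsr1, Celsr2, Celsr3, Lrp1, Lrp2 and Lrp4, out of 39253 genes listed. They were measured by RNA-seq of polyadenylated RNA in Neuro2A cells, a mouse neuroblastoma line. The 24 libraries form 8 groups of 3 independent cultures, all of the same wild-type line. Cells of 6 groups were transiently transfected with a plasmid for an RNA-targeting CRISPR effector (RfxCas13d, its high-fidelity variant HiFi-RfxCas13d, or DiCas7-11) together with a crRNA against the mouse ataxin-2 mRNA (mATXN2) or a non-targeting crRNA (NTG), and were harvested 48 hr later. The remaining cultures were left untransfected or received an antisense oligonucleotide (ASO) that targets ataxin-2. No group received a control oligonucleotide, and how the ASO was delivered and when those cells were harvested are not known here. Against untransfected cells, loss of ataxin-2 and other effects of the ASO or its delivery thus cannot be told apart. Nor can transfection, plasmid and effector in the NTG groups. In the deposited table the columns of both arms carry other names than the labels, for the control (EV in place of NTG) as well as for the ataxin-2 crRNA, so what the control plasmid held and which crRNA was used are in doubt, and the arms are called NTG and mATXN2 here after the labels. Each culture transfected with plasmid mixes cells that took it up with cells that did not. In bulk RNA fewer cells with a transcript and less of it per cell cannot be told apart.

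Fat and Dachsous cadherins carry long rows of extracellular cadherin repeats, and Dachsous acts as a ligand for Fat on the neighbouring cell. This pairing feeds into planar cell polarity and the Hippo growth pathway. Celsr proteins, the vertebrate relatives of Flamingo, are cadherins with a seven-pass membrane domain that hold the core polarity complex together between cells and guide axons. Lrp1 and Lrp2 (megalin) are endocytic receptors that take up lipoproteins, proteases and many other ligands, and Lrp4 is the receptor for agrin at the neuromuscular synapse.

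Libraries held between 12665723 and 22504939 counts, with the highest totals in the ASO group. Of the 39253 genes, the 13899 with at least 0.5 CPM (counts scaled to library size) in at least 3 libraries were tested with edgeR's quasi-likelihood test, and adjusted p-values are Benjamini-Hochberg values over all of them. Of the 16 markers listed for neuroblastoma and neurons, 14 averaged at least 0.5 CPM, among them Hand2 at 360.0 to 410.4 CPM. The targeted gene, Atxn2, averaged 123 ± 1.79 CPM (SD, n = 3) in untransfected cells and 52.0 ± 2.77 CPM with the ASO. With the mATXN2 crRNA its log2 fold change against NTG was -0.10 ± 0.04 (SE) for RfxCas13d, which did not pass (adjusted p = 0.177), -0.23 ± 0.04 for HiFi-RfxCas13d (adjusted p = 0.00157) and -0.20 ± 0.04 for DiCas7-11 (adjusted p = 0.00555). The DiCas7-11 call was lost when NTG replicate 2 (0.0762) or mATXN2 replicate 1 (0.0565) was left out and in a fit of these 6 samples alone (0.0809). The NTG libraries of DiCas7-11 spread more than other replicates. Their chi-square per gene between pairs of replicates was 3.34 to 5.59, against 1.68 to 2.56 in the other groups, and each result that is lost without 1 of these libraries is marked as such.

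The 10 genes fell into 3 classes by level. Fat1, Celsr3, Dchs1, Lrp1 and Celsr2 averaged at least 50 counts per library (478 to 1768) and are called the abundant members below. Lrp4, Fat3 and Celsr1 were tested at 11.5 to 25.0 counts per library on average. Fat4 had 0 counts in all 24 libraries, which allows up to 0.133 to 0.237 CPM per library (3 counts, counting error only), and Lrp2 had 5 counts in all of them together, so neither was tested. Per kilobase of coding sequence, Celsr3 was highest at a mean of 8.43 CPM per kb over the 24 libraries, followed by Fat1 at 7.38, Dchs1 at 5.26, Celsr2 at 3.19 and Lrp1 at 2.23 CPM per kb. Celsr3 and Fat1 changed order in 1 of the 24 libraries and their ranges overlapped in 3 of the 8 groups, whereas each later step from Fat1 down to Celsr1 held in all 24 libraries with no overlap within any group. Lrp4 came next at 0.257 CPM per kb, then Celsr1 at 0.0743 and Fat3 at 0.0499 CPM per kb, and these last levels overlapped in 5 of the 8 groups. Among the Celsr genes, Celsr3 and Celsr2 thus carried nearly all of the counts, and of the Fat genes Fat1 did. Coding lengths come from another genome build than the authors' and ran from 5715 bases (Lrp4) to 14943 bases (Fat4), against a median of 1416 bases over the tested genes that had one.

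The 250 bases upstream of the RefSeq start site (GRCm38.p6) are shown for 4 abundant members, since their levels moved together across the groups. They lie at chr8:44949958-44950207 on the plus strand for Fat1, chr3:108415580-108415829 on the minus strand for Celsr2, chr9:108825795-108826044 on the plus strand for Celsr3 and chr10:127621149-127621398 on the minus strand for Lrp1. Capitals mark the GC box (GGGCGG on either strand).
Fat1: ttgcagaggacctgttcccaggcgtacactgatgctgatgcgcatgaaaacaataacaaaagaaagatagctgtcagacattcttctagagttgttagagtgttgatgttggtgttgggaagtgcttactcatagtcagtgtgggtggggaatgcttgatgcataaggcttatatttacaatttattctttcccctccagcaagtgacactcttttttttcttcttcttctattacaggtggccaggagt
Celsr2: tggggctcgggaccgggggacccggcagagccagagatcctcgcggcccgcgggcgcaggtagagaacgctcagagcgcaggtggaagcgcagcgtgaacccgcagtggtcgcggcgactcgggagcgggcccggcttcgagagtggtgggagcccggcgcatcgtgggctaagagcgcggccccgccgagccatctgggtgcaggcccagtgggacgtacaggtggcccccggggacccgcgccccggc
Celsr3: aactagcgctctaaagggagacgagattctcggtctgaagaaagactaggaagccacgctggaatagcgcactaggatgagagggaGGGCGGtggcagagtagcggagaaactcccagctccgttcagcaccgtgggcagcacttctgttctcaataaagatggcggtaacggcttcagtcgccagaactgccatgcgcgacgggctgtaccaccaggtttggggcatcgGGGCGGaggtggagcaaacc
Lrp1: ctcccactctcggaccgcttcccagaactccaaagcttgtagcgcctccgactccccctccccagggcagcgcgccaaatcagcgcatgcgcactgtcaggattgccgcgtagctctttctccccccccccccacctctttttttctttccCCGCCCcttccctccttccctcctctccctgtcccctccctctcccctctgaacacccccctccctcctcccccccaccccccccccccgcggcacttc
The GC box occurred 2 times upstream of Celsr3 and 1 time upstream of Lrp1, and 32.7% of the 32851 promoters of the same length hold it. GC content was 42.0% for Fat1, 75.2% for Celsr2, 58.0% for Celsr3 and 67.2% for Lrp1, against a median of 52.4% over all promoters. None of the 4 windows holds the letters of the CCAAT box (CCAAT, in 33.8% of promoters), the TATA box (TATAAA, 12.4%), the E-box (CACGTG, 6.02%) or a sterol regulatory element (TCACNCCAC, 1.05%), each searched on both strands. These are descriptions of the letters only. Dchs1, Celsr1 and Lrp4 had no entry among the promoters, and the windows of Fat3, Fat4 and Lrp2 are not shown.

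Across the groups the abundant members had a like order of levels. Their means were below the untransfected level in cells with an effector and the NTG crRNA, and above that NTG level in cells with the same effector and the mATXN2 crRNA. Lrp1 fell in all 3 NTG groups, by 23.4% to 30.7%, and was 37.4% to 40.4% higher with mATXN2 than with NTG. Fat1 was 27.8% to 39.8% higher with mATXN2 than with NTG for each effector. Both kinds of comparison share the NTG libraries, so their values are only set side by side.

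**Figure D1:**
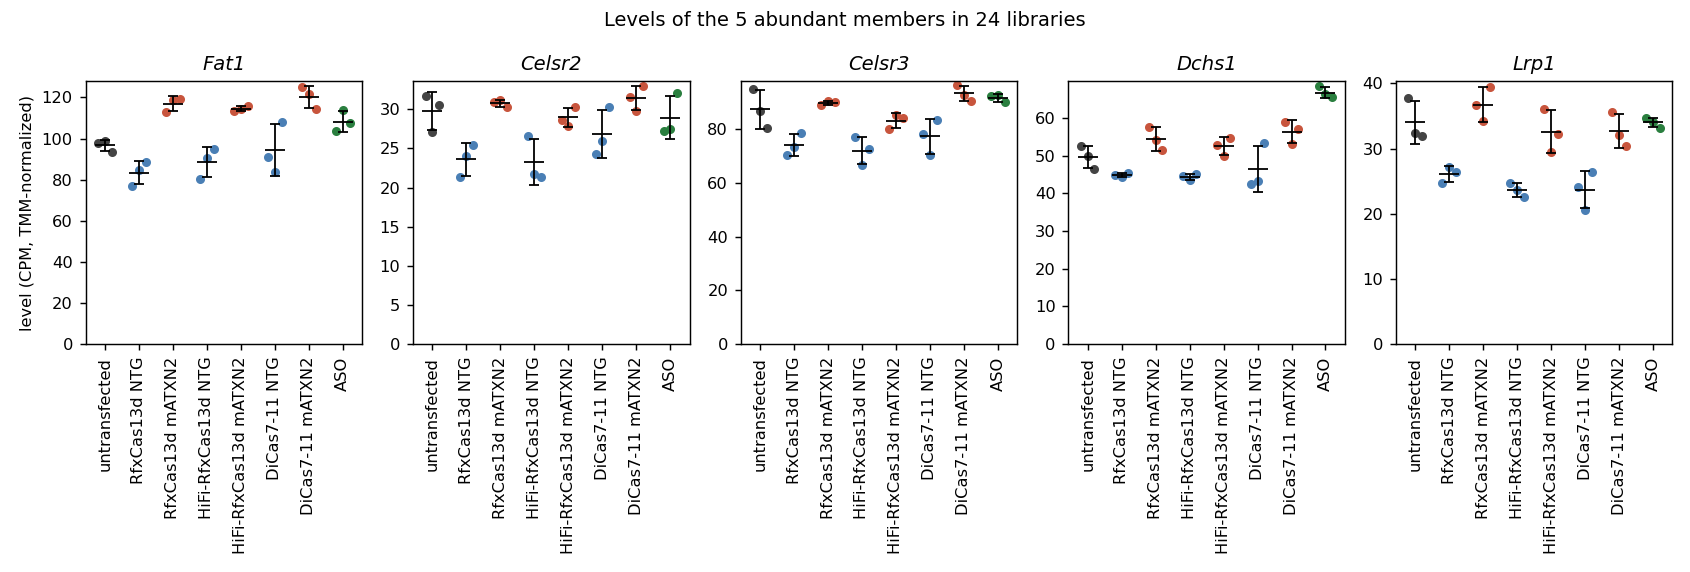
Level of the 5 abundant members in each library, in CPM after TMM normalization on an axis from 0, by group (black untransfected, blue NTG, red mATXN2, green ASO). Each point is 1 library, and bars give the mean and SD of 3 libraries. For Lrp1 the 9 NTG libraries lie between 20.7 and 27.1 CPM, below every other library.

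Fat1, a receptor-like cadherin that restrains growth through the Hippo pathway, stood at 97.6, 98.8 and 93.6 CPM in untransfected cells. With RfxCas13d it was at 77.1, 84.8 and 88.4 CPM under NTG and at 113, 119 and 119 CPM under mATXN2. With HiFi-RfxCas13d it was at 80.4, 90.3 and 94.8 CPM under NTG and at 114, 114 and 116 CPM under mATXN2. All mATXN2 libraries of both Cas13 forms were above their NTG libraries and above the untransfected ones. With DiCas7-11 the NTG libraries held 90.8, 83.6 and 108 CPM and the mATXN2 libraries 125, 121 and 115 CPM, again with no overlap. With the ASO the level was 103, 114 and 107 CPM, above every untransfected library. The log2 fold change of mATXN2 against NTG was 0.48 ± 0.06 (SE, adjusted p = 9.37e-05) for RfxCas13d, 0.37 ± 0.06 (adjusted p = 0.00275) for HiFi-RfxCas13d and 0.35 ± 0.06 (adjusted p = 0.00349) for DiCas7-11. The DiCas7-11 call was lost when NTG replicate 2 (adjusted p = 0.0876) or mATXN2 replicate 1 (0.0507) was left out and in a fit of these 6 samples alone (0.0809). Against untransfected cells the NTG groups differed by -0.21 ± 0.07 for RfxCas13d (adjusted p = 0.0372), -0.13 ± 0.07 for HiFi-RfxCas13d (0.179) and -0.04 ± 0.07 for DiCas7-11 (0.727). The first of these calls was lost without any 1 of 5 libraries (the 3 untransfected ones and NTG replicates 1 and 2), with adjusted p of 0.0514 to 0.195, and in DESeq2 (0.0602).

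Dchs1 encodes a Dachsous cadherin, the ligand of the Fat4 receptor, whose own mRNA had no count here. Its untransfected level was 52.5, 49.98 and 46.6 CPM. With RfxCas13d the NTG libraries held 44.8, 44.3 and 45.5 CPM and the mATXN2 libraries 57.7, 54.1 and 51.5 CPM. With HiFi-RfxCas13d these were 44.7, 43.6 and 45.2 CPM against 52.8, 50.1 and 54.7 CPM, and for both effectors the groups did not overlap. With DiCas7-11 the NTG libraries stood at 42.4, 43.4 and 53.5 CPM, so that replicate 3 reached above the lowest of the mATXN2 libraries (59.1, 53.0 and 57.1 CPM). With the ASO all libraries (68.4, 66.4 and 65.5 CPM) were above the 21 others. Dchs1 rose with mATXN2 by a log2 fold change of 0.28 ± 0.06 for RfxCas13d (adjusted p = 0.0217) and 0.28 ± 0.06 for DiCas7-11 (adjusted p = 0.0217), while 0.24 ± 0.06 for HiFi-RfxCas13d did not pass (adjusted p = 0.123). Its NTG levels did not pass against untransfected cells (log2 fold changes of -0.17 to -0.10, adjusted p = 0.0695 to 0.2999). The ASO change of 0.42 ± 0.06 (adjusted p = 1.25e-06) was the highest of any member in that comparison. The RfxCas13d call was lost in 5 of the 6 fits without 1 of its libraries (adjusted p up to 0.121, all but the one without mATXN2 replicate 3), and the DiCas7-11 call without NTG replicate 2 (0.246), mATXN2 replicate 1 (0.160) or mATXN2 replicate 3 (0.0777) and in a fit of these 6 samples alone (0.271).

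Celsr3, the neuronal Celsr gene that guides axon tracts, had 95.2, 86.7 and 80.7 CPM in untransfected cells. With RfxCas13d it went from 70.6, 73.3 and 78.7 CPM under NTG to 89.0, 90.4 and 90.1 CPM under mATXN2. With HiFi-RfxCas13d it went from 77.0, 66.8 and 72.5 CPM to 80.1, 85.2 and 84.3 CPM. Under both Cas13 forms the NTG libraries were below all the untransfected and all the mATXN2 libraries. With DiCas7-11 it went from 78.1, 70.4 and 83.5 CPM to 96.5, 92.9 and 90.7 CPM, and under the ASO it was at 92.3, 92.9 and 90.2 CPM, within the untransfected range. Celsr3 rose with mATXN2 by 0.27 ± 0.06 on the log2 scale for RfxCas13d (adjusted p = 0.0123) and by 0.27 ± 0.06 for DiCas7-11 (adjusted p = 0.0111), and differed by 0.21 ± 0.06 for HiFi-RfxCas13d (adjusted p = 0.147). It fell in each NTG group against untransfected cells, by 0.24 ± 0.06 for RfxCas13d (adjusted p = 0.00590), 0.29 ± 0.06 for HiFi-RfxCas13d (0.000546) and 0.18 ± 0.06 for DiCas7-11 (0.0197) on the log2 scale. The first fall was lost without untransfected replicate 1 (0.0752), and the last without that library (0.188), without DiCas7-11 NTG replicate 2 (0.193) and in a fit of these 6 samples alone (0.0852). The rise for RfxCas13d was lost without NTG replicates 1 (0.103) or 2 (0.0535) or mATXN2 replicates 2 (0.0560) or 3 (0.0657). That for DiCas7-11 was lost when NTG replicate 2 (0.186) or mATXN2 replicate 1 (0.1001) was left out and in a fit of these 6 samples alone (0.0819).

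Celsr2, which is also neuronal and shapes dendrites, followed Celsr3 at a lower level of 31.8, 27.1 and 30.6 CPM in untransfected cells. With RfxCas13d it was at 21.3, 24.1 and 25.4 CPM under NTG and 30.9, 31.1 and 30.3 CPM under mATXN2. With HiFi-RfxCas13d it was at 26.6, 21.7 and 21.4 CPM and then 28.7, 27.9 and 30.3 CPM. Neither pair overlapped. With DiCas7-11 the values of 24.3, 26.0 and 30.3 CPM under NTG overlapped with 31.5, 29.8 and 32.9 CPM under mATXN2. The ASO libraries held 27.2, 27.5 and 32.1 CPM. The log2 fold change of mATXN2 against NTG was 0.38 ± 0.09 for RfxCas13d (adjusted p = 0.0217), 0.32 ± 0.09 for HiFi-RfxCas13d (0.141) and 0.22 ± 0.08 for DiCas7-11 (0.207), and the RfxCas13d call was lost in 5 of the 6 fits without 1 of its libraries (adjusted p up to 0.165, all but the one without NTG replicate 3). Celsr2 fell under NTG against untransfected cells by 0.33 ± 0.09 for RfxCas13d (adjusted p = 0.0139) and by 0.36 ± 0.09 for HiFi-RfxCas13d (0.00372) on the log2 scale, and the first of these was lost without untransfected replicate 1 (0.0857) or NTG replicate 1 (0.0893). The DiCas7-11 difference was -0.14 ± 0.09 (0.260).

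Lrp1, the endocytic receptor, was lower in each NTG library than in any other library. Untransfected cells held 37.8, 32.4 and 31.9 CPM. With RfxCas13d the level was 24.7, 27.1 and 26.5 CPM under NTG and 36.7, 34.2 and 39.4 CPM under mATXN2. With HiFi-RfxCas13d it was 24.8, 23.6 and 22.6 CPM and then 36.1, 29.4 and 32.3 CPM. With DiCas7-11 it was 24.05, 20.7 and 26.4 CPM and then 35.6, 32.0 and 30.4 CPM. For no effector did an NTG library reach the lowest mATXN2 or untransfected library. The ASO libraries, at 34.7, 34.2 and 33.2 CPM, lay within the untransfected range. Lrp1 fell under NTG against untransfected cells by 0.38 ± 0.08 for RfxCas13d (adjusted p = 0.00259), 0.53 ± 0.08 for HiFi-RfxCas13d (4.16e-05) and 0.53 ± 0.09 for DiCas7-11 (4.44e-05) on the log2 scale, and these 3 calls held in every fit without 1 library, with adjusted p up to 0.0374. It rose under mATXN2 against NTG by 0.49 ± 0.08 (adjusted p = 0.00121), 0.46 ± 0.08 (0.00545) and 0.47 ± 0.08 (0.00349) for the same effectors. The HiFi-RfxCas13d rise was lost without NTG replicate 3 (0.0547) or mATXN2 replicate 1 (0.0773), and the DiCas7-11 rise when NTG replicate 2 (0.0922) or mATXN2 replicate 1 (0.0565) was left out and in a fit of these 6 samples alone (0.0641).

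Counted over the 8 tested members, 5 rose with mATXN2 against NTG for RfxCas13d (Fat1, Celsr2, Celsr3, Dchs1, Lrp1), where 0.914% of all tested genes did. For HiFi-RfxCas13d 2 rose (Fat1, Lrp1) against 0.281% of all genes, and for DiCas7-11 4 rose (Fat1, Celsr3, Dchs1, Lrp1) against 0.554%. None fell, where 0.475%, 0.0144% and 0.389% of all genes did. Of the 134 other tested genes with coding lengths of at least 8000 bases, 20.9%, 16.4% and 21.6% rose in the same comparisons. The members were chosen with earlier results of these data known, so their counts are only set beside these shares. Averaged over the 3 effectors, all 5 abundant members rose, by 0.25 (Celsr3) to 0.47 (Lrp1) on the log2 scale with SE of 0.03 to 0.05. There 2.94% of all genes and 49.3% of the 134 other long genes rose. These 5 calls held under every alternative run, with adjusted p up to 0.00459. Members whose 3 mATXN2 libraries were all above the 3 NTG libraries numbered 5 for RfxCas13d (10.3% of all genes), 5 for HiFi-RfxCas13d (6.98%) and 3 for DiCas7-11 (7.25%). The count of 4 calls for DiCas7-11 went to 0 when NTG replicate 2 or mATXN2 replicate 1 was left out or the 6 samples were fitted alone, and the count of 2 for HiFi-RfxCas13d went to 1 without NTG replicate 3 or mATXN2 replicate 1. The count of 5 for RfxCas13d went to 2 without NTG replicate 1, NTG replicate 2 or mATXN2 replicate 2, and to 3 without mATXN2 replicate 1 or 3. Under the adjustment over 10 comparisons that the study describes, 5 members passed for each of RfxCas13d and HiFi-RfxCas13d, and 4 for DiCas7-11.

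Between effectors, the response to mATXN2 did not differ detectably for any of the 8 tested members in the edgeR test of the difference. The same fit called 0% of all genes in each of the 3 comparisons, with 854 to 1083 genes at an unadjusted p under 0.05, and no member was among these. For the 5 abundant members the difference from the RfxCas13d response was -0.11 to -0.03 on the log2 scale for HiFi-RfxCas13d and -0.16 to 0.00 for DiCas7-11, with 95% intervals (normal approximation) that together span -0.39 to 0.21. HiFi-RfxCas13d minus DiCas7-11 gave -0.06 to 0.10, with intervals from -0.25 to 0.34. No alternative called a member in these 3 comparisons.

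Against untransfected cells, 4 members fell under NTG with RfxCas13d (Fat1, Celsr2, Celsr3, Lrp1) where 5.66% of all genes fell, 3 with HiFi-RfxCas13d (Celsr2, Celsr3, Lrp1) against 10.6%, and 3 with DiCas7-11 (Celsr1, Celsr3, Lrp1) against 10.7%. No member rose, where 5.59%, 10.3% and 11.1% of all genes did. All 3 NTG libraries were below the 3 untransfected ones for 5 members with RfxCas13d (14.6% of all genes), 5 with HiFi-RfxCas13d (18.0%) and 2 with DiCas7-11 (16.4%). The RfxCas13d count went to 1 without untransfected replicate 1 and to 2 without NTG replicate 1, and the DiCas7-11 count to 1 without NTG replicate 2. Lrp1 and Celsr3 were the members that fell in all 3 groups. Both DiCas7-11 counts, of calls and of members without overlap, include Celsr1. That gene had 3 to 8 counts in these NTG libraries and reached the 0.5 CPM filter through the other groups, so its fall adds no support to those counts.

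The mATXN2 libraries were also set directly against the untransfected ones, a comparison added after the levels had been seen. Fat1 was above the untransfected level for each effector, by 0.27 ± 0.06 (adjusted p = 0.00467), 0.24 ± 0.06 (0.00592) and 0.31 ± 0.06 (0.000412) on the log2 scale for RfxCas13d, HiFi-RfxCas13d and DiCas7-11. Celsr2, Celsr3 and Lrp1 did not pass for any effector, with log2 fold changes of -0.08 to 0.10, and the 95% intervals of these 9 values together ran from -0.23 to 0.26. After the coding length correction described below, Celsr3 with HiFi-RfxCas13d (-0.16, adjusted p = 0.00959) and Lrp1 with DiCas7-11 (-0.19, 0.0444) were called lower, and Fat1 stayed called higher for each effector (0.13 to 0.19). Dchs1 passed for DiCas7-11 (0.18 ± 0.06, adjusted p = 0.0318), a call lost without untransfected replicates 2 (0.0712) or 3 (0.139) or mATXN2 replicates 1 (0.142) or 3 (0.0734) and with the coding length correction (0.218). Calls in either direction numbered 1 of the 8 tested members for RfxCas13d, where 12% of all genes were called, 1 for HiFi-RfxCas13d (22.2%) and 3 for DiCas7-11 (25.3%). The last count includes Celsr1, which reached the 0.5 CPM filter through the other groups.

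**Figure D2:**
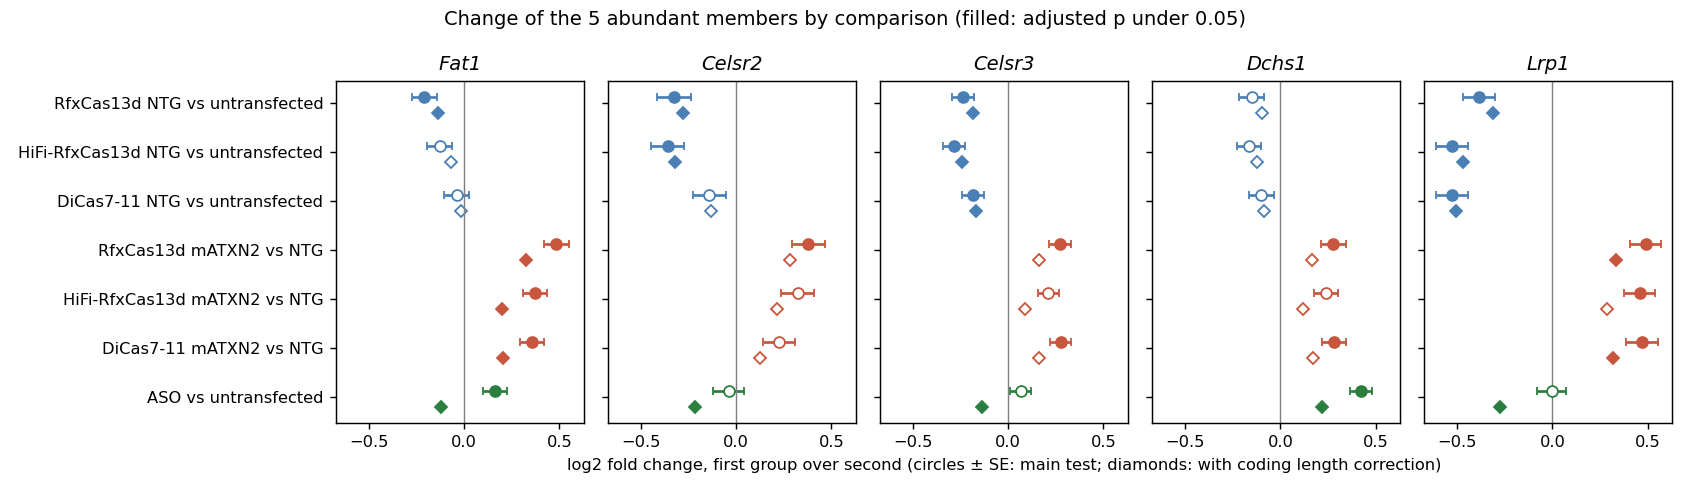
Log2 fold change of the 5 abundant members (horizontal axis) in 7 comparisons (rows). Circles with SE bars are the edgeR test, diamonds the same test after the coding length correction, and filled symbols have an adjusted p under 0.05. Circles are left of 0 for NTG against untransfected cells and right of 0 for mATXN2 against NTG, from -0.53 to 0.49, and for the ASO the diamonds lie further left.

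With the ASO 2 members rose against untransfected cells. Dchs1 rose by 34.1% and Fat1 by 11.8% (log2 fold change of 0.16 ± 0.06, adjusted p = 0.0375), while 21.0% of all genes rose. Lrp1 (-0.00 ± 0.08, 95% interval -0.15 to 0.15), Celsr2 (-0.04 ± 0.08, -0.20 to 0.12) and Celsr3 (0.06 ± 0.05, -0.04 to 0.17) did not pass. The Fat1 call was lost without any 1 untransfected library (adjusted p = 0.0560 to 0.111) and without ASO replicates 2 (0.159) or 3 (0.0619), which leaves 1 called member. It also missed the threshold in DESeq2 (0.0710) and with both adjustments over 10 comparisons (0.0811 and 0.0878), and turned to -0.12 ± 0.04 (adjusted p = 0.0200) under the coding length correction described below. Dchs1 stayed called in every fit, with adjusted p up to 0.000370.

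The 3 members at low counts were Celsr1, Fat3 and Lrp4. Celsr1, the epithelial Celsr gene, is known for polarity in skin and the neural tube. It had 17, 14 and 20 counts in untransfected cells and 8, 3 and 6 counts in the NTG libraries of DiCas7-11 (1.17 ± 0.384 against 0.379 ± 0.203 CPM). That fall was called (log2 fold change of -1.63 ± 0.45, adjusted p = 0.00883), and lost without NTG replicate 2 (0.0726). The mATXN2 libraries of DiCas7-11, with 6, 7 and 2 counts, were lower than untransfected cells as well (-1.97 ± 0.46, adjusted p = 0.00173). In the NTG groups of both Cas13 forms the counts were 6 to 14, with log2 fold changes of -0.89 ± 0.41 (adjusted p = 0.167) and -0.83 ± 0.40 (0.147) that did not pass. Celsr1 reached 0.5 CPM in 18 of the 24 libraries, 1 of which was among the 6 of DiCas7-11, so it passed the filter through the other groups. Fat3, which shapes the dendrites of retinal neurons, had 4 to 24 counts and Lrp4 had 16 to 38. Neither was called in any comparison by the test as described, and Lrp4 was called lower with DiCas7-11 and mATXN2 than in untransfected cells after the coding length correction (-0.76, adjusted p = 0.0451). In the comparisons between groups the standard errors were 0.25 to 0.45 for Fat3 and 0.17 to 0.31 for Lrp4 on the log2 scale, so changes of the size seen for most abundant members were not detectable at this depth.

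**Figure D3:**
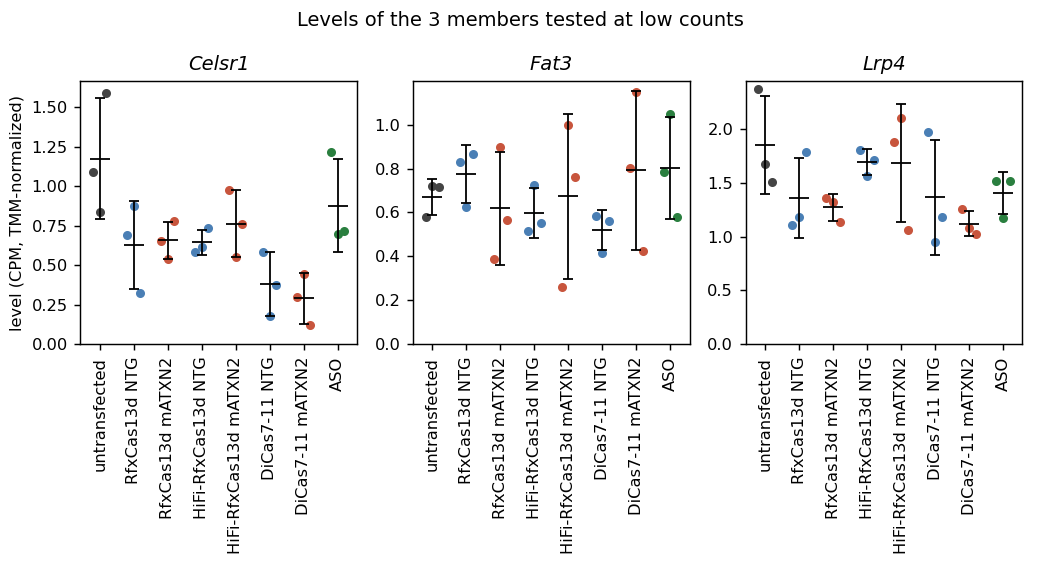
Level of Celsr1, Fat3 and Lrp4 in each library, in CPM after TMM normalization on an axis from 0, with colours and bars as for the abundant members. Of the 6 DiCas7-11 libraries, 1 holds Celsr1 above 0.5 CPM and the 3 untransfected libraries hold 0.839 to 1.59 CPM, while Fat3 and Lrp4 overlap between most groups.

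The members can be set beside other long proteins. The list of 32 other long secretory-pathway genes (26 tested, coding lengths of 4011 to 13149 bases) holds laminins, plexins, Notch receptors and matrix proteins, and 44 long intracellular genes (7089 to 26397 bases) encode chromatin factors, ubiquitin ligases, motors and large kinases. With mATXN2 against NTG, 3, 2 and 3 of the 26 secretory genes rose for RfxCas13d, HiFi-RfxCas13d and DiCas7-11 and none fell, with median log2 fold changes of 0.09, 0.13 and 0.13. Of all tested genes 0.914%, 0.281% and 0.554% rose and 0.475%, 0.0144% and 0.389% fell in these comparisons. Hspg2, the basement membrane proteoglycan perlecan, rose by 0.69 ± 0.08 with RfxCas13d (adjusted p = 2.84e-05), 0.57 ± 0.08 with HiFi-RfxCas13d (0.000319) and 0.53 ± 0.08 with DiCas7-11 (0.00127), and Fn1 (fibronectin) by 0.27 to 0.31. Of the 44 intracellular genes, 21, 19 and 21 rose and none fell, with medians of 0.20, 0.20 and 0.19. Dync1h1, the heavy chain of the dynein motor, rose by 0.46 ± 0.06, 0.50 ± 0.06 and 0.42 ± 0.06 for the same effectors, close to Lrp1 and Fat1. The median of all tested genes was between -0.00 and 0.00 in these comparisons. For the tested members the median was 0.28, 0.24 and 0.28.

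With the ASO 21.0% of all tested genes rose and 21.7% fell. Of the 44 intracellular genes 36 rose and 2 fell (median log2 fold change of 0.36). Of the 26 secretory genes 6 rose and 9 fell (median -0.07) and of the 8 tested members 2 rose and none fell (median 0.03). Kmt2b, a histone methyltransferase of the intracellular list, rose by 0.59 ± 0.05 (adjusted p = 2.97e-11), and Vps13a, a lipid transfer protein of that list, fell by 0.69 ± 0.04 (5.45e-13). Among the secretory genes Pkd1 (polycystin-1) rose by 0.72 ± 0.07 (2.16e-09) while Agrn (agrin, the ligand of Lrp4) fell by 0.40 ± 0.03 (7.66e-11) and Ptprs, a receptor phosphatase, by 0.30 ± 0.03 (2.66e-09). Under NTG against untransfected cells, 6, 13 and 13 of the secretory genes fell and 1, 1 and 2 rose for the 3 effectors (medians of -0.12, -0.18 and -0.17), where 5.66%, 10.6% and 10.7% of all genes fell and 5.59%, 10.3% and 11.1% rose. Of the intracellular genes 6, 8 and 5 fell and 2, 3 and 4 rose (medians of -0.08, -0.09 and -0.02). Of the members 4, 3 and 3 fell (medians of -0.28, -0.23 and -0.28), the last count with the low-count Celsr1. Lama5, a laminin chain, fell by 0.62 ± 0.07 with HiFi-RfxCas13d (6.59e-07) and by 0.75 ± 0.08 with DiCas7-11 (3.05e-08). Heg1, a membrane protein of the same list, rose by 0.72 ± 0.11 with RfxCas13d (3.55e-05) and by 0.85 ± 0.11 with HiFi-RfxCas13d (1.78e-06). Hspg2 fell under NTG by 0.51 ± 0.08 with RfxCas13d (7.60e-05), 0.58 ± 0.08 with HiFi-RfxCas13d (7.65e-06) and 0.46 ± 0.08 with DiCas7-11 (0.000156). Its rises with mATXN2 are against these same NTG libraries. No test of the difference between lists was run, and the members' medians rest on 8 genes.

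**Figure D4:**
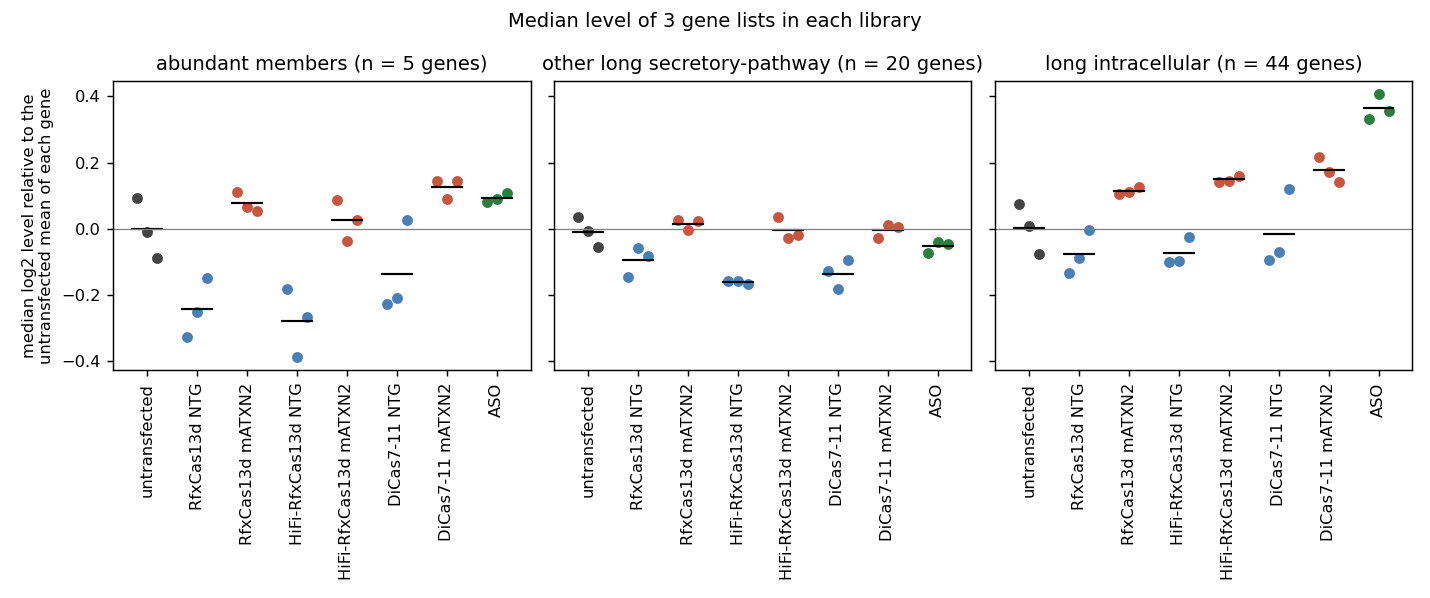
Median over each list of the log2 level relative to the gene's mean in untransfected cells, for genes averaging at least 50 counts. Each point is 1 library and each line a group mean. With the ASO the intracellular list lies at 0.33 to 0.41, the abundant members at 0.08 to 0.11 and the other secretory genes at -0.07 to -0.04, while the NTG means of all 3 lists are below 0.

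Library by library, the median of the 5 abundant members relative to untransfected cells averaged -0.24 ± 0.09 (SD, n = 3) on the log2 scale under NTG with RfxCas13d, -0.28 ± 0.10 with HiFi-RfxCas13d and -0.14 ± 0.14 with DiCas7-11. Under mATXN2 it averaged 0.08 ± 0.03, 0.03 ± 0.06 and 0.13 ± 0.03. The DiCas7-11 NTG replicate 3 stood at 0.03 while the other NTG libraries of that effector stood at -0.23 and -0.21, and in the intracellular list the same library stood at 0.12. Untransfected replicate 1 was the highest of its group for the members (0.09) and for both other lists (0.04 and 0.08).

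Coding length moved with the changes under mATXN2 and under the ASO. Of the 141 tested genes with a coding length of at least 8000 bases, which hold all tested members but Lrp4, 33, 24 and 33 rose with mATXN2 against NTG for RfxCas13d, HiFi-RfxCas13d and DiCas7-11 and none fell. Without the members these were 28, 22 and 29 of 134 (20.9%, 16.4% and 21.6%), against 0.734%, 0.117% and 0.342% of the 11993 genes under 8000 bases. With the ASO 87 of the 134 rose and 8 fell, and their median log2 fold change was 0.27. In the NTG comparisons with untransfected cells 3, 9 and 19 of the 134 rose and 13, 20 and 16 fell, with medians of -0.06, -0.05 and -0.00. With DiCas7-11, where Celsr3, Lrp1 and the low-count Celsr1 fell, about as many of the other long genes thus rose as fell. A coding length correction, which takes out of each library the smooth trend over coding length of its log2 values relative to the average library, brought the mATXN2 changes of the abundant members down to 0.32, 0.20 and 0.20 for Fat1 and 0.33, 0.29 and 0.32 for Lrp1. Fat1 stayed called for each effector (adjusted p = 5.15e-05, 0.0440 and 0.0138), Lrp1 for RfxCas13d (0.0164) and DiCas7-11 (0.0245) but not HiFi-RfxCas13d (0.148), and Celsr2, Celsr3 and Dchs1 for none (0.0657 to 0.746). When a term for replicate number was added to the correction, Lrp1 with HiFi-RfxCas13d, Celsr2 with RfxCas13d and Celsr3 with DiCas7-11 stayed called. Averaged over effectors all 5 stayed called, with 0.14 to 0.31. Under the correction the NTG calls against untransfected cells stayed at 4, 3 and 3 members. For the ASO the calls changed: Fat1 (-0.12), Celsr2 (-0.22), Celsr3 (-0.14) and Lrp1 (-0.28) were called lower and Dchs1 (0.22) was still called higher, with adjusted p of 0.000370 to 0.0200. Before the correction 21.0% of all genes rose and 21.7% fell with the ASO. The shares of all genes called under the correction are not given here, so the corrected counts of members are not set against them. The part of length in these results was not tested beyond this correction, which removes any change that long genes share.

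Other genes of the same pathways were also counted. Of 19 tested genes of the Fat-Dachsous, planar polarity and Hippo list, none rose with mATXN2 against NTG, and 1 fell with DiCas7-11 (Stk3, the Hippo kinase Mst2, by 0.16 ± 0.03, adjusted p = 0.0166). Of all tested genes 0.914%, 0.281% and 0.554% rose and 0.475%, 0.0144% and 0.389% fell for the 3 effectors. At these shares hardly any of 19 genes would be called. Under NTG against untransfected cells 4, 5 and 5 of the 19 fell (5.66%, 10.6% and 10.7% of all genes) and 0, 2 and 2 rose (5.59%, 10.3% and 11.1%). Stk3 fell in all 3 (by 0.20, 0.22 and 0.17), and Fzd3 and Vangl2, partners of the Celsr proteins in the core polarity complex, fell by 0.15 and 0.14 with RfxCas13d and by 0.20 and 0.21 with HiFi-RfxCas13d, while Lats1, another Hippo kinase, rose by 0.17 ± 0.03 with DiCas7-11 (0.000657). With the ASO 10 fell and 3 rose, against 21.7% and 21.0% of all genes. Vangl2 fell by 0.62 ± 0.04 (adjusted p = 1.71e-12), Stk3 by 0.45 ± 0.03 (8.56e-12) and Wwtr1 (Taz), a coactivator that the Hippo pathway restrains, by 1.24 ± 0.10 (7.05e-11).

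Of 20 tested genes of the LDL receptor family with its chaperones, ligands and adaptors, 1 rose with mATXN2 against NTG, namely Lrp6, a Wnt coreceptor, with RfxCas13d (0.13 ± 0.03, adjusted p = 0.0310). For the 3 effectors 0.914%, 0.281% and 0.554% of all tested genes rose, so at these shares hardly any of 20 genes would. Averaged over effectors Agrn rose by 0.11 ± 0.02 (0.000742) and Lrp6 by 0.10 ± 0.02 (0.00117), and App fell by 0.05 ± 0.01 (0.0184). Under NTG against untransfected cells 4, 5 and 4 rose (5.59%, 10.3% and 11.1% of all genes) and 1, 5 and 5 fell (5.66%, 10.6% and 10.7%). Fbxw7, a ubiquitin ligase subunit, rose in all 3 by 0.31 to 0.39, and Mylip, the ligase that degrades LDL receptors, rose by 0.42 ± 0.09 with RfxCas13d (0.00361) and 0.44 ± 0.09 with HiFi-RfxCas13d (0.000953), while App fell by 0.18 ± 0.02 with DiCas7-11 (1.13e-06). With the ASO 5 rose and 6 fell, against 21.0% and 21.7% of all genes, and those that fell included Lrp11 (by 0.33 ± 0.03, adjusted p = 5.89e-11), Agrn and Lrp5 (by 0.39 ± 0.05, 2.18e-07), while Lrp1 and Lrp4 were not called. Agrn, Reln and Sorl1 stand in this list and in that of long secretory genes.

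The levels of the abundant members were correlated across libraries. Pearson's r of log2 CPM over the 24 libraries was 0.64 to 0.84 in the 10 pairs among them, and -0.19 to 0.42 in the other 18 pairs of tested members. These values share the groups, the depth and the normalization of the libraries. Among 10908 genes averaging at least 50 counts, those most like the mean of the 8 tested members were Sbf1 (r = 0.86), Dock6 (0.81), Rps19 (0.80), Lama5 (0.79) and Cacna1i (0.79). Against the mean of the 5 abundant members, a profile chosen after the values were seen, these were Trrap (0.92), Ep400 (0.92), Dync1h1 (0.91), Sec16a (0.91) and Macf1 (0.90), and 46 genes had r above 0.8. The 5 have coding lengths of 7131 (Sec16a) to 22065 bases (Macf1). For the tested giant cadherins and LDL receptor-related genes taken apart, 0 genes had r above 0.8.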

How the data were processed

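RNA of 24 Neuro2A cultures was sequenced by the authors (stranded mRNA libraries, single-end) and quantified with Salmon (version 1.5.2) on the NCBI mouse transcriptome (GRCm39), with tximport (lengthScaledTPM) for gene sums. The table deposited by the authors holds expected counts of 39253 genes, not normalized for depth. Effector, arm and replicate number tied each column to its sample, and 0 columns were left out. Per the labels, each replicate is an independent biological replicate.

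Counts were rounded and tested with edgeR (version 4.0.16, R 4.3.3) after TMM normalization, with all 8 groups in 1 model, at an adjusted p of 0.05. SE is the log2 fold change over the root of the F statistic. The members, gene lists and tests were chosen with earlier results of these data known. Named are Atxn2, all members, up to 3 called genes with the smallest p of each other list per comparison, and the 5 genes most like the members. The comparisons of mATXN2 with untransfected cells and the likeness to the abundant members were added after the data were seen. Coding length is the longest coding sequence of a gene in GENCODE M21 (GRCm38), found for 87.3% of tested genes, and its correction used a lowess span of 0.3.

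Alternatives were RLE size factors, every gene with a nonzero count, DESeq2 (version 1.42.0), limma-trend (version 3.58.1) and edgeR adjusted over 10 comparisons, only the samples compared, a replicate block, the length correction with and without that block, and leaving out each library. The study's methods do not list its 10 comparisons, so those used may differ. The scripts were tested on simulated data.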

Additional observations from a re-analysis of the deposited data

How the results depend on the processing

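The 5 calls averaged over effectors, the 3 Lrp1 falls under NTG and the Dchs1 rise with the ASO held under every alternative that gave a value. So did the mATXN2 rises against NTG of Fat1 and Lrp1 with RfxCas13d and of Fat1 with HiFi-RfxCas13d. The falls of Celsr2 and Celsr3 under NTG with HiFi-RfxCas13d held as well. Each other call of a single effector in these comparisons was lost in at least 1 fit without a library. With the coding length correction the members called with mATXN2 against NTG numbered 2 for RfxCas13d (5 in the edgeR test described), 1 for HiFi-RfxCas13d (2) and 2 for DiCas7-11 (4). With that correction and the replicate block there were 3 for RfxCas13d, where Celsr2 stayed called. Lrp1 with HiFi-RfxCas13d and Celsr3 with DiCas7-11 stayed called with the block as well. DESeq2 called 3 for RfxCas13d and 2 for DiCas7-11, and gave no adjusted p for 2 of the calls of each. It also called Celsr3 (0.0305) and Dchs1 (0.0297) for HiFi-RfxCas13d, and gave no adjusted p for 1 of the 2 edgeR calls there. For HiFi-RfxCas13d 5 were called with edgeR or limma-trend adjusted over 10 comparisons, with every gene with a nonzero count and with only the samples compared, which left 0 for DiCas7-11. For HiFi-RfxCas13d NTG against untransfected cells 5 (3) were called with every gene with a nonzero count. For the ASO (2) these were 1 with both adjustments over 10 comparisons and DESeq2, and 5 with the length correction, with or without the block. For HiFi-RfxCas13d mATXN2 against untransfected cells (1) they were 2 with the length correction and 3 with the block as well. Leaving out 1 library gave 2 to 4 members for RfxCas13d, 1 to 3 for HiFi-RfxCas13d and 0 to 4 for DiCas7-11 with mATXN2 against NTG, 1 to 4 for RfxCas13d and for DiCas7-11 with NTG against untransfected cells, and 1 to 2 for the ASO.

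Genes called with mATXN2 against NTG for RfxCas13d (193) numbered 665 with edgeR and 707 with limma-trend adjusted over 10 comparisons, 434 with every gene with a nonzero count, 292 with the replicate block, 388 with only the samples compared and 43 to 142 without 1 library. For HiFi-RfxCas13d (41) these were 275, 269, 201, 105 with only the samples compared, 19 with the length correction, 67 in DESeq2 and 21 to 28 without 1 library. For DiCas7-11 (131) they were 642, 636, 366, 251 with the replicate block, 324 with the length correction and block, 287 in DESeq2, 1 with only the samples compared and 16 to 605 without 1 library. Averaged over effectors (721) they were 546 to 1085 without 1 library, the highest without DiCas7-11 NTG replicate 1. NTG against untransfected cells gave 1030 to 1170 (1564) without 1 library for RfxCas13d, and 1858 with only the samples compared for DiCas7-11. For the differences between responses (0 genes) every gene with a nonzero count gave 84 for HiFi-RfxCas13d minus RfxCas13d, 72 for DiCas7-11 minus RfxCas13d and 80 for HiFi-RfxCas13d minus DiCas7-11. DiCas7-11 minus RfxCas13d gave 4 with the replicate block, 7 with the length correction and block and 3 in DESeq2, and HiFi-RfxCas13d minus DiCas7-11 gave 3 in DESeq2 and 0 to 6 without 1 library. The cause of these changes was not tested.

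The log2 fold change changed sign with the coding length correction, without and with the block, for Celsr1 with RfxCas13d mATXN2 against NTG (-0.024 and -0.032), and with the block for Fat3 averaged over effectors (-0.0058). With the ASO it did so for Fat1 (-0.12 in both), Fat3 (-0.010 and -0.0057) and Celsr3 (-0.14 in both), and that of Lrp1 turned to 0.0024 with every gene with a nonzero count, 0.0034 in limma-trend and 0.00087 in DESeq2. For mATXN2 against untransfected cells it did so for Celsr3 with RfxCas13d (-0.024 in both), for Fat3 with HiFi-RfxCas13d (-0.066 and -0.069, and -0.10 in limma-trend), for Dchs1 with HiFi-RfxCas13d (-0.0044 and -0.0040) and with DiCas7-11 for Celsr2 (-0.0035 and -0.0068) and Celsr3 (-0.0060 and -0.0068). Without 1 library, the log2 fold change of mATXN2 against NTG crossed 0 for Celsr1 (-0.27 to 0.40) and Lrp4 (-0.24 to 0.15) with RfxCas13d, for Fat3 (-0.18 to 0.54) and Lrp4 (-0.23 to 0.24) with HiFi-RfxCas13d, for Celsr1 (-0.73 to 0.071) and Lrp4 (-0.46 to 0.083) with DiCas7-11 and for Celsr1 averaged (-0.14 to 0.12). Against untransfected cells it did so under NTG for Lrp4 with HiFi-RfxCas13d (-0.25 to 0.080) and Fat1 with DiCas7-11 (-0.15 to 0.046), and with the ASO for Celsr2 (-0.12 to 0.017) and Lrp1 (-0.044 to 0.086). With mATXN2 it did so for Fat3 (-0.49 to 0.15), Celsr2 (-0.022 to 0.10) and Celsr3 (-0.018 to 0.098) with RfxCas13d, for Fat3 (-0.33 to 0.39), Celsr2 (-0.11 to 0.017), Lrp1 (-0.14 to 0.016) and Lrp4 (-0.36 to 0.10) with HiFi-RfxCas13d, and for Fat3 (-0.097 to 0.52) and Lrp1 (-0.12 to 0.031) with DiCas7-11. Of all these changes, that of Fat1 with the ASO was the one called in the edgeR test described.

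Same-numbered replicates of compared groups had correlations of -0.12 to 0.20 between their deviations (90 values), so the numbers were not taken as pairs, and the replicate block alone changed no count of members called. The depth limits Fat3, Celsr1 and Lrp4, at means of 11.5 to 25.0 counts.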
